A study of Drosophila melanogaster with 2 samples.

Results

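The vacuolar proton pump (V-ATPase) subunit genes of Drosophila melanogaster were taken as the protein-coding genes whose symbol begins with Vha in the Ensembl annotation of BDGP6, the assembly also called dm6. There were 33 of them among 13945 protein-coding genes on the arms analysed. The data were lists of peaks from chromatin immunoprecipitation with sequencing (ChIP-seq) of REPTOR, formerly CG13624, a bZIP transcription factor. Per the labels, the embryos came from 1 stably transgenic line with GFP fused to the C terminus of the protein, were 0 to 24 h old, pooled from both sexes and left whole, and an antibody against GFP was used. There was 1 group with 2 biological replicates, numbered 1 and 3, and no other genotype, treatment or stage. Peaks are therefore averages over all embryonic tissues, and the data hold no measure of expression. Depth is unknown, since these lists carry no read totals.

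The V-ATPase is a rotary machine with a cytosolic V1 part, which hydrolyses ATP, and a membrane-embedded V0 part, which carries protons into lysosomes, endosomes and other compartments. At the lysosome it also works with the Ragulator complex and the Rag GTPases to signal amino acid supply to the TORC1 growth kinase. REPTOR acts below TORC1 and enters the nucleus, where it partners with REPTOR-BP, when TORC1 activity is low. In flies many subunits are encoded by several paralogs, some of which are known for restricted expression, for example in the testis.

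Promoter peaks were counted by gene: the summit of a peak of the authors' optimal list had to lie within 1000 bp of any of its transcription start sites (TSSs). Of the 33 Vha genes, 14 (42.4%) had one, against 30.3% of all protein-coding genes (4226 of 13945). The V1 genes had promoter peaks at 7 of 13, the V0 genes at 7 of 18, and the genes of the accessory proteins VhaAC45 and VhaAC45RP had none. For the comparison by copy number, a gene counted as having paralogs when removing a final hyphen with a number or letter from its symbol left a stem shared with another Vha gene. Of the 26 genes with several paralogs, 9 (34.6%) had a promoter peak, and of the 7 single-copy genes 5 (71.4%) had one. Counted by family, the difference was small: 6 of 8 families with several paralogs and 5 of 7 single-copy subunits had a peak at 1 gene or more. A family with several genes has more chances of a peak, so this count does not compare like with like. Copy number was also tied to the part of the pump. All 18 V0 genes had paralogs, and the 5 single-copy genes with a peak were all V1 genes. No test was made of these shares, since genes of a family share descent and the genes were chosen with earlier results of these data known.

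**Figure D1:**
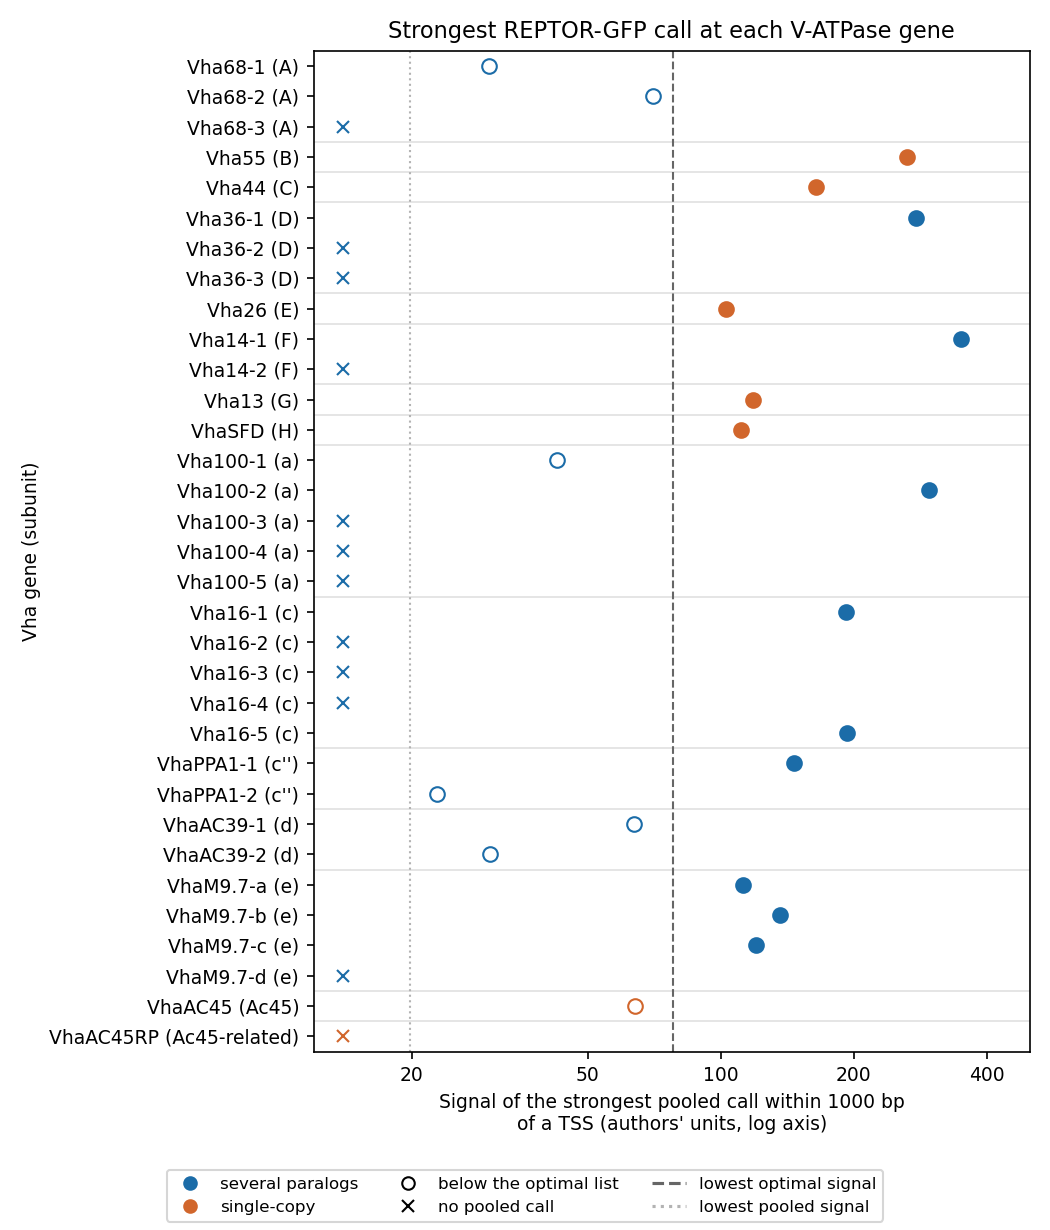
Signal of the strongest call made on both replicates together within 1000 bp of a start site of each of the 33 Vha genes (log axis), with the subunit letter in parentheses, blue for genes with several paralogs and orange for single-copy genes. Filled points belong to the optimal list, open points fall below its lowest signal of 77.9 (dashed line), and crosses mark genes with no pooled call. Except for the VhaM9.7 and Vha16 families, each family with several paralogs has at most 1 filled point.

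Sequence at the summits is shown for 4 peaks. At VhaPPA1-1 and Vha13 the Vha gene was nearest to the summit, though Vha13 also had the TSS of Nup58 in its window. At Vha26 and VhaM9.7-b a gene on the opposite strand was nearer. Each run covers 101 bases centred on the summit, read 5′ to 3′ on the strand of the Vha gene from the Release 6 genome. All letters are in lower case because no match to the 8 motifs searched, which are given further on, lay in these windows. The windows were chr3R:14904128-14904228 at VhaPPA1-1, chr3R:19644375-19644475 at Vha13, chr3R:5591503-5591603 at Vha26 and chr3L:21539443-21539543 at VhaM9.7-b.
VhaPPA1-1: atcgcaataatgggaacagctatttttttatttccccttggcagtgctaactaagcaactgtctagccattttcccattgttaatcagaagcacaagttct
Vha13: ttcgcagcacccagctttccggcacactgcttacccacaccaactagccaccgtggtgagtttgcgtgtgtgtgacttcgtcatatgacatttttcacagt
Vha26: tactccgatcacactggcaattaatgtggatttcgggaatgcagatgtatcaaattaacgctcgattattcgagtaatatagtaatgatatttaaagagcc
VhaM9.7-b: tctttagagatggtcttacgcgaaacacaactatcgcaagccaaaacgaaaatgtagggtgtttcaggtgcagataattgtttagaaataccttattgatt
GC content of the 4 windows was 38.6%, 51.5%, 35.6% and 36.6%, in the same order.

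Signals below are the authors' peak signals. They rank calls within a list, and their scale depends on the reads that entered the call, so replicates are compared by rank. Each replicate list held 30000 calls, with a median signal of 18.2 in replicate 1 and 20.8 in replicate 3. The optimal list held 5321 peaks with signals from 77.9 to 2773. The Vha genes had 15 promoter peaks with a median signal of 147 (78.1 to 350), beside a median of 127 (78.0 to 2323) over the 3618 peaks within 1000 bp of a protein-coding TSS. The 4 strongest, at Vha14-1, Vha100-2, Vha36-1 and Vha55, ranked 330, 509, 584 and 658 of the 5321 optimal peaks, and the weakest ranked 5307. All 15 ranked among the first 5321 calls of both replicates. The optimal list was itself selected on agreement of the replicates, and the same share was not computed over all its peaks. Replicate 1 ranked 9 of the Vha peaks higher and replicate 3 ranked 6 higher. The 9 include both peaks of VhaPPA1-1, which share their replicate calls.

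**Figure D2:**
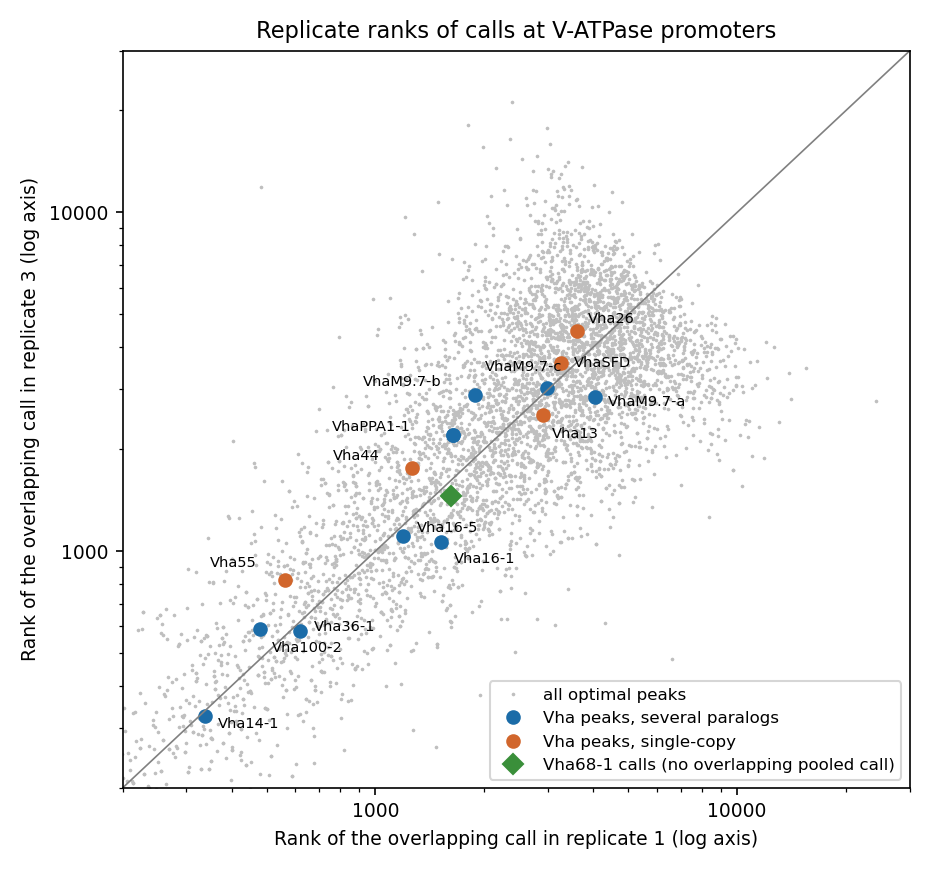
Rank of the strongest overlapping call in replicate 1 (x) and replicate 3 (y) at Vha promoter peaks, on log axes, over the optimal peaks (grey), with the line of equal rank. Both axes start at rank 200, so stronger peaks are outside the plot. The Vha peaks start at ranks 338 and 326 at Vha14-1 and end at 4043 in replicate 1 (VhaM9.7-a) and 4459 in replicate 3 (Vha26), and the diamond marks the calls at Vha68-1, which had ranks 1613 and 1455 and no overlapping pooled call.

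Among the single-copy V1 genes, the strongest peak was at Vha55, which encodes the nucleotide-binding B subunit. Its signal was 141 in replicate 1 (rank 563) and 123 in replicate 3 (rank 822), and the pooled peak (3R, 12627736 to 12627975) had a signal of 264 and rank 658. The summit lay 16 bp upstream of the Vha55 TSS, which was the nearest start site, and Snx3, a sorting nexin gene, also had a TSS within 1000 bp. Vha44 encodes subunit C, which joins the V1 and V0 parts. Its peak (2R, 16336595 to 16336719) had signals of 95.3 in replicate 1 (rank 1261) and 82.0 in replicate 3 (rank 1755), and a pooled signal of 164. The summit was 75 bp upstream of Vha44 and nearer, at 48 bp, to the divergent TSS of Hmgs, which encodes HMG-CoA synthase. Both genes stood above the median of all promoter peaks in the pooled list.

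The other single-copy peaks were weaker. Vha13, for the stalk subunit G, had signals of 59.9 (rank 2913) and 66.7 (rank 2525) in replicates 1 and 3 and a pooled signal of 118, with the summit 39 bp upstream of its TSS. Vha13 was the nearest gene, and the nucleoporin gene Nup58 also had a TSS in the window. VhaSFD, for the regulatory subunit H, had signals of 55.7 (rank 3258) and 54.3 (rank 3597) and a pooled signal of 111, with the summit 81 bp inside the gene in its 5′ UTR and no other protein-coding TSS within 1000 bp. Vha26, for stalk subunit E, had the lowest values of the single-copy genes, with signals of 52.0 (rank 3615) and 47.3 (rank 4459) and a pooled signal of 103. Its summit was 210 bp upstream of Vha26 and 94 bp upstream of noi, a splicing factor gene on the opposite strand. All 3 fell below the pooled median of 127 over all promoter peaks. The 5 peaks at single-copy genes had a median pooled signal of 118 (103 to 264), and 2 of them were above 127. The 10 peaks at genes with paralogs had a median of 169 (78.1 to 350), and 7 were above 127. These ranges overlapped, and the difference was not tested.

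The 2 single-copy genes without a promoter peak were those of the accessory proteins. VhaAC45 had a pooled call near its TSS with a signal of 64.1 and rank 6917, below the lowest optimal signal, and its ranks were 9215 in replicate 1 and 5444 in replicate 3. VhaAC45RP had no call in the pooled list or in replicate 1, and a call of 18.3 (rank 17972) in replicate 3. With these related genes counted as 1 family instead, all 5 remaining single-copy genes had a promoter peak.

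Among V1 families with several paralogs, 1 gene in each of the D and F families had a peak. Vha36-1, for the rotor shaft subunit D, had signals of 135 in replicate 1 (rank 617) and 144 in replicate 3 (rank 581), and its pooled peak (2R, 15541287 to 15541484) had a signal of 277. The summit was 39 bp upstream of Vha36-1 and 33 bp from the divergent TSS of CG8187, and the start sites were 72 bp apart. Its paralogs Vha36-2 and Vha36-3 had no call within 1000 bp in any of the 3 lists, and the optimal summits nearest to them were 2149 and 1764 bp away. Vha14-1, for rotor subunit F, had the highest pooled signal of all Vha genes, at 350 (2R, 15679172 to 15679378), with 175 (rank 338) and 179 (rank 326) in replicates 1 and 3. That summit, however, was 799 bp from the Vha14-1 TSS and 141 bp beyond the 3′ end of this short gene, and it lay 329 bp upstream of Gmppa, a GDP-mannose pyrophosphorylase gene on the same strand. Vha14-2 had no call in any list.

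In the V0 part, the 5 genes of subunit a, the large membrane stator protein, had 1 peak between them. It was assigned to Vha100-2 (3R, 18397058 to 18397345), with signals of 151 (rank 478) and 144 (rank 588) in replicates 1 and 3 and 295 in the pooled list. The summit was 309 bp upstream of the more internal of its 2 annotated start sites, within the span of Vha100-2, and lay in the 5′ UTR of Vti1b, a SNARE gene on the opposite strand whose TSS was 242 bp away. With the annotated 5′ end alone, Vha100-2 had no promoter peak. Vha100-4, which starts 517 bp past the end of Vha100-2 on the same strand, had no call in any list, nor had Vha100-3 and Vha100-5. Vha100-1, known for its role in neurons, had a pooled call of 42.5 (rank 11456) at 10 bp from a TSS, no call in replicate 1 and one of 23.5 (rank 12526) in replicate 3.

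The proton-carrying ring is built from subunits c and c″. Vha16-1 (2R, 6633111 to 6633290) had signals of 86.3 (rank 1518) in replicate 1 and 106 (rank 1064) in replicate 3, and a pooled signal of 192 with the summit 93 bp upstream of its TSS and no other protein-coding TSS in the window. Vha16-5 (2L, 10737234 to 10737408) had nearly the same pooled signal, 193, from 98.1 (rank 1189) and 103 (rank 1110) in the replicates. There the summit lay 311 bp upstream of Vha16-5 and 9 bp inside CG12299. Vha16-2, Vha16-3 and Vha16-4 had no call in any list. VhaPPA1-1, for subunit c″, was the only Vha gene with 2 promoter summits, at 117 and 319 bp upstream, with pooled signals of 147 and 78.1. Both overlapped the same replicate calls, of 83.1 (rank 1634) in replicate 1 and 72.6 (rank 2197) in replicate 3. The second summit ranked 5307 of 5321 and was the Vha peak closest to the end of the optimal list. VhaPPA1-2, 2052 bp past the 3′ end of VhaPPA1-1 on the same strand, had a pooled call of 22.8 (rank 25611), and its nearest optimal summit was 1649 bp away.

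Subunit e, a small membrane protein, was the family with the most bound paralogs, with peaks at 3 of 4 genes, all of them on 3L. VhaM9.7-b had signals of 77.0 (rank 1890) and 61.9 (rank 2897) in replicates 1 and 3 and a pooled signal of 136. Its summit was 369 bp upstream of VhaM9.7-b and 46 bp from the divergent TSS of COX8, a cytochrome c oxidase subunit gene. VhaM9.7-c had signals of 59.0 (rank 2982) and 60.4 (rank 3027) and a pooled signal of 120, with the summit 22 bp inside its own 5′ UTR and no other protein-coding TSS in the window. VhaM9.7-a had signals of 47.9 (rank 4043) and 62.5 (rank 2841), a pooled signal of 112, and a summit 211 bp upstream of it and 24 bp from CG11586. VhaM9.7-d had no call in any list. Neither gene of subunit d, which links the rotor to the ring, had an optimal peak: the pooled call at VhaAC39-1 had a signal of 63.7 (rank 6969; replicate ranks 8516 and 6814), and that at VhaAC39-2 a signal of 30.1 (rank 18066; replicate ranks 9969 and 20824).

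The catalytic A subunit has 3 genes within one stretch of 2L, and none of them had an optimal promoter peak. Vha68-2, with 5 annotated start sites, had its best pooled call 145 bp from a TSS with a signal of 70.3 and rank 6100, the closest to the optimal list of all Vha genes without a peak. The replicates differed there, with a signal of 61.4 (rank 2791) in replicate 1 and 17.4 (rank 19346) in replicate 3. Vha68-3, 178 bp past the end of Vha68-2, had a single call, of 14.9 (rank 24177) in replicate 3.

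At Vha68-1, both replicates had a call that no pooled call overlapped. Its TSS lies 373 bp from that of mTor, which encodes the kinase of TORC1, on the opposite strand. The call between these start sites had a signal of 83.6 and rank 1613 in replicate 1 (2L, 13004006 to 13004415) and of 90.3 and rank 1455 in replicate 3 (2L, 13003971 to 13004414). The summits were 104 and 86 bp upstream of Vha68-1, and 269 and 287 bp upstream of mTor. The pooled summit nearest to these calls was 846 and 828 bp away from them. It belonged to the strongest pooled call in the window of Vha68-1, which was weak, with a signal of 29.9 and rank 18212, at 742 bp from the TSS. The 74 optimal peaks whose ranks were within 200 of these in each replicate had pooled signals from 90.3 to 188, with a median of 173. Calls of like rank without an optimal peak could not be among these 74. Their range therefore does not show what pooled signal calls of such ranks usually have. Of the first 5321 calls of replicate 1, 4151 overlapped one of the first 5321 of replicate 3, and 14 of these (0.337%) overlapped no pooled call. The replicate 1 window, chr2L:13004161-13004261, is shown because mTor and Vha68-1 share it. It is written on the strand of Vha68-1, with the bases TGACGT, the core of the site of many bZIP factors, in capitals.
Vha68-1: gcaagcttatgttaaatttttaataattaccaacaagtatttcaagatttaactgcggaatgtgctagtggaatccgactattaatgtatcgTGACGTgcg

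Of the 19 Vha genes without a promoter peak, 7 had a pooled call in the window and 12 had none. There was no call in any of the 3 lists at 10 genes, all with paralogs. That is 30.3% of the Vha genes, beside 30.1% of all protein-coding genes (4193). None of the 19 had an optimal summit within its own span. Their nearest optimal summits were 1649 to 68042 bp from a TSS, with a median of 12660 bp, and within 2000 bp lay those of VhaPPA1-2 and Vha36-3. On the other side of the 1000 bp limit, the most distant promoter summit was that at Vha14-1, and the other 14 lay within 369 bp.

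Most of the 15 Vha summits had start sites of more than 1 gene within 1000 bp. Another protein-coding gene had a TSS within 1000 bp of 10 of the 15 summits, and for 8 of them it was nearer than that of the Vha gene. In 7 of those 8 the nearest gene was on the opposite strand. Shares of this kind were not computed over all promoter peaks. Counted by gene, 2778 of all 4226 genes with a promoter peak had another gene's TSS within 1000 bp of their own. Among the 14 Vha genes with a peak, 10 did, so such a neighbour was common in both sets. The Vha gene was nearest at 7 peaks (46.7%), 3 of the 5 at single-copy genes and 4 of the 10 at genes with paralogs. The 8 peaks nearer to another gene had a median pooled signal of 178 (103 to 350), and the 7 nearest to the Vha gene one of 120 (78.1 to 264), so the ranges overlapped widely. Of the 15 summits 12 were upstream of the Vha TSS, and 7 were within 100 bp of it. The distance had a median of 75.0 bp (16 to 210) at single-copy genes and 260 bp (22 to 799) at genes with paralogs.

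**Figure D3:**
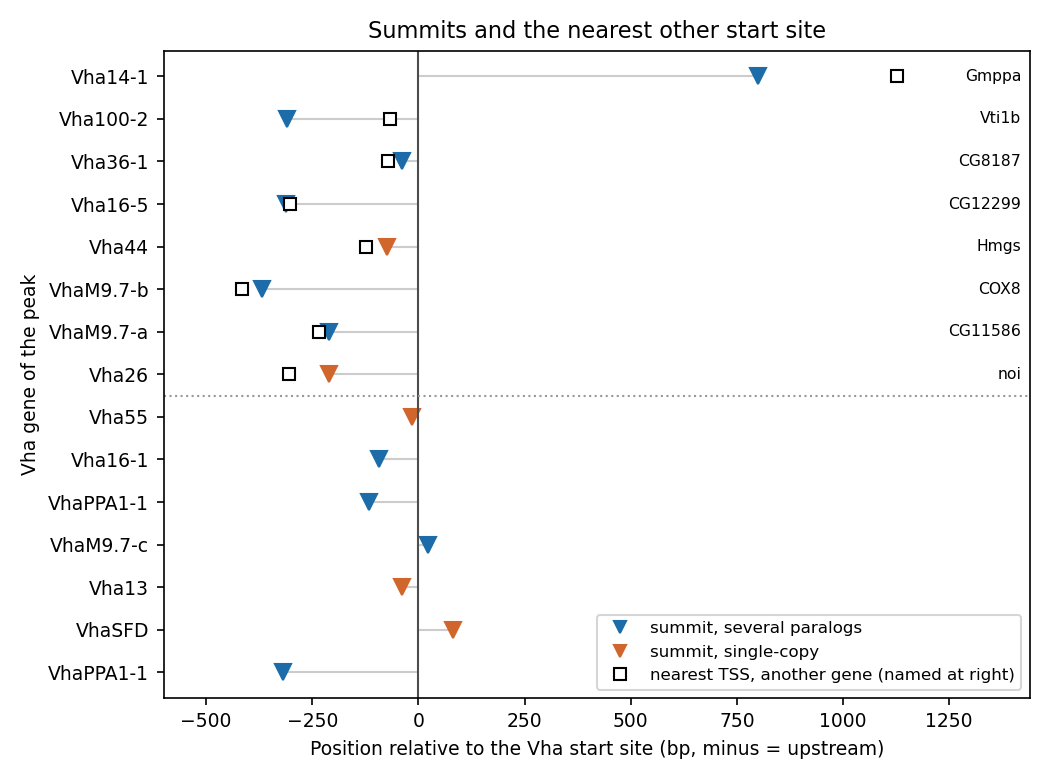
Position of each of the 15 summits (triangles, blue for genes with several paralogs and orange for single-copy genes) relative to the nearest start site of the Vha gene, in bp along the direction of that gene. Squares mark the nearest start site where it belongs to another gene, named at the right, as at the 8 peaks above the dotted line.

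Copy number went together with the presence of a neighbouring start site. Another protein-coding TSS lay within 1000 bp of a TSS of 5 of the 7 single-copy genes and of 10 of the 26 with paralogs. Over all protein-coding genes, 46.4% of the 5985 with such a neighbour and 18.2% of the 7960 without had a promoter peak. Among the Vha genes the counts were 10 of 15 with a neighbour and 4 of 18 without. Within genes with a neighbour, 4 of 5 single-copy genes and 6 of 10 with paralogs had a peak. Within genes without one, the counts were 1 of 2 and 3 of 16. Most genes in both groups had a single TSS, 5 of 7 and 20 of 26, and among these 3 and 7 had a peak, where 24.1% of all genes with 1 TSS had one. The part of neighbouring genes in the difference by copy number was not tested beyond these counts.

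The count depended on how a peak was given to a gene. When each summit was given only to the nearest protein-coding gene, 6 of 33 Vha genes had a promoter peak (18.2%, against 22.2% of all genes): 3 of 7 single-copy genes (Vha13, Vha55 and VhaSFD) and 3 of 26 with paralogs (Vha16-1, VhaM9.7-c and VhaPPA1-1). In the stricter list, the 2661 optimal peaks with a signal of at least 124.5, it was 9 of 33 (27.3%, against 17.5%), and the groups came together at 28.6% (2 of 7) and 26.9% (7 of 26), with only Vha44 and Vha55 left among the single-copy genes. For the other rules of this paragraph, the parentheses after the Vha count hold the share of all protein-coding genes with a peak. A 500 bp window gave 13 Vha genes (27.0%) and a 2000 bp window 16 (35.3%). The annotated 5′ end of each gene alone gave 13 (28.7%), and overlap of the whole peak with the window gave 14 (31.4%). The first 5321 calls of replicate 3 alone gave 15 (29.6%), those of replicate 1 alone 16 (30.4%), and the calls shared by both 15 (24.9%). Each of these 3 replicate counts included Vha68-1, and replicate 1 alone also included Vha68-2. The single-copy count was 5 of 7 in all of the settings of this paragraph except the nearest gene and the stricter list.

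**Figure D4:**
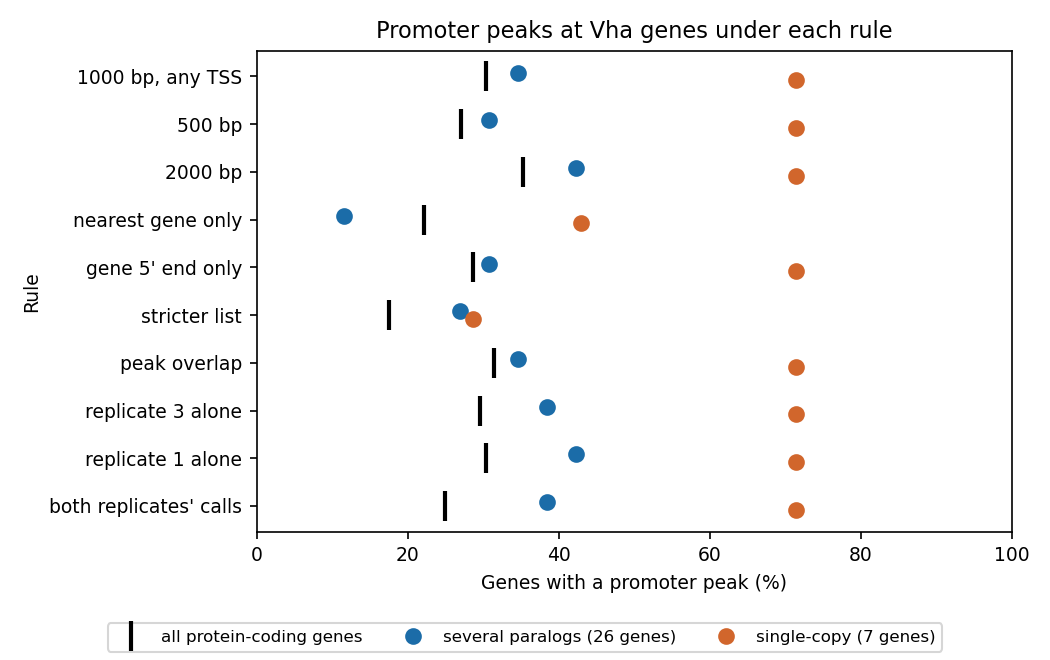
Percentage of genes with a promoter peak under 10 rules, for the 26 Vha genes with several paralogs (blue), the 7 single-copy genes (orange) and all protein-coding genes (black bars). Single-copy genes stand at 71.4% in 8 rules, at 42.9% when only the nearest gene counts and at 28.6% in the stricter list.

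The same counts were made in 2 other multi-subunit complexes of fly cells, with copies recognised by a final T, R or L in the symbol, with or without a number. Among the 15 genes named ATPsyn, for the rotary ATP synthase of mitochondria, a promoter peak was present at 7 of 9 single-copy genes (77.8%) and 1 of 6 with several copies (16.7%). Among 48 proteasome genes it was present at 13 of 20 single-copy genes (65.0%) and 5 of 28 with several copies (17.9%). In the proteasome the 5 were Prosalpha3, Prosbeta5, Rpn12, Rpn13 and Rpt6, all with the base symbol, and none of the 16 genes with a copy symbol had one. In the ATP synthase it was ATPsynCF6, and none of 3 genes with a copy symbol had one. By gene and with the 1000 bp window, the share was higher at single-copy genes in each of the 3 complexes. Copies were, however, recognised differently in the pump. There the difference was small in the stricter list and by family, a count in which larger families have more chances of a peak. These 2 counts were not made for the other complexes. No test was made of the difference between complexes. The Vha symbols do not mark which paralog is the base gene, so the division into base and copy symbols was not made for the pump.

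**Figure D5:**
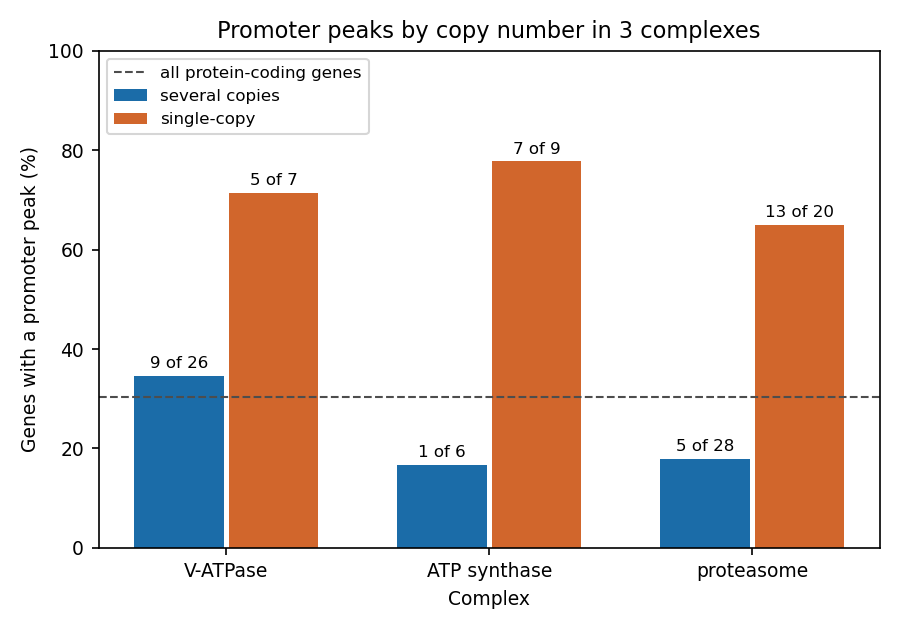
Percentage of genes with a promoter peak among genes with several copies (blue) and single-copy genes (orange) of the V-ATPase, the mitochondrial ATP synthase and the proteasome, with the counts above the bars. The dashed line marks the 30.3% of all protein-coding genes.

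The 8 motifs were searched on both strands in promoters of 300 bp (250 bp before to 50 bp from each TSS) and within 50 bp of summits. The CRE palindrome TGACGTCA, a site of many bZIP dimers, was in promoters of 0.724% of protein-coding genes (0.556% of their 19607 promoters) and, among Vha genes, in those of Vha55. Its core TGACGT, which is part of the palindrome, was in the promoters of 5 Vha genes with a peak (Vha13, Vha16-1, Vha44, Vha55 and VhaPPA1-1) and 2 without (Vha68-1 and Vha68-2), or 7 of 33, where 9.10% of all genes had it. A gene counted when the promoter of any of its TSSs had a match. At Vha44 the core was at the other TSS, and the promoter of the TSS near the summit had none. The core lay within 50 bp of 2 of the 15 summits, those at Vha16-1 and VhaM9.7-c, and of 2.76% of all 3618 promoter summits. The E-box CACGTG, bound by the lysosomal regulator Mitf among others, was in 5 of 33 Vha genes (5.30% of all genes). Its extended form TCACGTGA, at 0.201% of all genes, was in the promoters of Vha44, which had a peak, and Vha68-2, which had none. The DREF site TATCGATA was in the promoters of Vha55 and VhaSFD (10.2% of all genes), and Motif 1, GGTCACACT, in those of Vha16-1, Vha26, Vha100-1 and Vha68-2 (6.78% of all genes). At Vha16-1, Motif 1 was not in the promoter of the TSS nearest to the summit but in that of the other TSS. The E-box CAGCTG was in 11 of 33 Vha genes, where 22.3% of all genes had it, and the FOXO site GTAAACA in 3, where 11.6% did. Within 50 bp of summits, CACGTG and its extended form were found at 1 of 15, that at Vha44 (1.35% and 0.0829% of all promoter summits). CAGCTG was found at 2 of 15, those at Vha44 and VhaSFD (7.16%). The DREF site, Motif 1, the CRE palindrome and the FOXO site were found at none of the 15. Matches are descriptions of the sequence and were not tested.

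Of these matches, 5 are shown with their surroundings as runs of 30 bases on the strand of the gene, with the motif in capitals, because they are examples of longer motifs, of 8 or 9 bases, in promoters of genes with and without a peak. They are the CRE (chr3R:12627751-12627780) and DREF site (chr3R:12628000-12628029) of Vha55, the DREF site of VhaSFD (chr2L:16727831-16727860), Motif 1 of Vha26 (chr3R:5591751-5591780) and the extended E-box of Vha68-2 (chr2L:12975292-12975321). The CRE of Vha55 lay inside its peak, 79 bp from the summit, and the DREF site lay 170 bp from it. Those of VhaSFD and Vha26 lay 101 and 212 bp from the summits. The centre of Motif 1 of Vha26 was 2 bp from its TSS.
Vha55, CRE: gtgacggcacgTGACGTCAcagcagattca
Vha55, DREF site: gcttccaaattTATCGATAacatacggcga
VhaSFD, DREF site: tctgctcgtcaTATCGATAttcttatatat
Vha26, Motif 1: gcaatcgcagGGTCACACTttcgtgaaatc
Vha68-2, extended E-box: tcaaagctctgTCACGTGAaacgaaagctc

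Genes that work with the pump were counted in 3 lists. Of the Ragulator and Rag genes, 4 of 7 had a promoter peak: Lamtor3 (pooled signal 243), Lamtor2 (232), Lamtor4 (137) and Lamtor5 (92.7), all Ragulator subunits. The GTPase genes RagA-B and RagC-D and the Ragulator gene Lamtor1 had none. The gene nearest to the summit was the Ragulator gene itself in all 4, with CG30120 at equal distance in the case of Lamtor2, 652 bp away. Replicate ranks were 782 and 812 at Lamtor3 and 943 and 839 at Lamtor2. Of 4 genes for pump assembly and regulation, mtd, which encodes a TLDc protein and has 11 TSSs, held 3 summits with a top signal of 365. Rbcn-3B, for a rabconnectin that assembles the pump, had a peak of 102 at 830 bp whose nearest gene was Edem1. Rbcn-3A, for its partner, and Mitf had none. Of 9 genes of lysosomal membrane proteins and enzymes, 3 had a peak: Lamp1 (152), the cathepsin B gene CtsB (146) and the cathepsin L gene CtsL1 (148, nearest gene Rpn13). These counts stand beside the same 30.3% of all genes.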

How the data were processed

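ChIP-seq peak lists of 2 biological replicates were used as the authors deposited them, on dm6. By the deposited notes, the list of each replicate derives from its own alignment, the pooled list from both alignments, and all 3 also from 1 shared file whose role the notes do not state. The optimal list derives from these 3 lists with a threshold on the irreproducible discovery rate. Aligner and peak caller: not given in the sources used here. Used from the deposited columns were the peak signal, the −log10 q and the summit offset. The deposited −log10 q reached its highest value, 3.99, at 14 of 15 Vha peaks and ranked nothing. Depth is unknown, so no counting interval was put on the signal of a single peak.

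Summits were assigned with Python 3.11.15 and pandas 2.3.3 to TSSs of the Ensembl 115 annotation, and the assignment was checked on planted summits. Replicate values are those of the strongest call overlapping the peak by at least 1 bp. Sequence came from the RefSeq Release 6 genome, which holds all peak ends. Coordinates are 1-based. The dm3 lists were not used. Members, gene lists and rules were chosen with earlier results of these data known. Every Vha gene is named, as are the genes nearest to their peaks and the members of 3 lists with a peak. No test was made. Alternatives were other windows, TSS sets, assignments, a stricter list and single replicates, and, chosen after seeing the data, the calls shared by both replicates.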

Additional observations from a re-analysis of the deposited data

Results flagged for a closer look

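The promoter shared by Vha68-1 and mTor held calls with no counterpart in the pooled and optimal lists. It was called with a signal of 83.6 in replicate 1 and 90.3 in replicate 3, at ranks that fall within the first 5321 calls of each, while no call of the pooled list overlaps them. Vha68-1 was the only Vha gene without an optimal promoter peak for which this held. Counting it would bring the genes with several paralogs to 10 of 26 and leave the single-copy genes at 5 of 7. The reason for the missing overlap was not tested.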

How the results depend on the processing

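Of 38 recomputed values, 33 stayed within 1.5 times the count reported, or within the 95% interval of the share or median, and 5 did not. These intervals were wide, from 21.3% to 73.4% for the share and from 112.5 to 264.4 for the median. They treat the Vha peaks as independent, although 2 of them lay at VhaPPA1-1 and rested on the same replicate calls. Staying within them therefore shows little about stability. With the nearest gene only, 6 Vha genes had a promoter peak, 3 with several paralogs and 3 single-copy. In the stricter list 9 Vha genes had one, of which 2 were single-copy. For the nearest gene the fall follows from the rule, since 8 peaks were nearer to another gene. For the stricter list it follows from the lower pooled signals at 5 genes. Without replicate 1 or 3, the Vha count ranged from 15 to 16, that of genes with paralogs from 10 to 11, and that of single-copy genes was 5. The share of peaks nearest to the Vha gene ranged from 33.3% to 57.1% over its alternatives, and the median pooled signal from 130.6 to 192.7. No paired analysis was possible because there was 1 group. With 7 single-copy genes, 1 gene is worth 14.3 percentage points, and weak calls limit what the absence of a peak shows.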
